A study of Arabidopsis thaliana with 8 samples.

Results

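Transcripts of untreated ros1 rosettes were compared with those of untreated wild-type rosettes of Arabidopsis thaliana. The comparison covers 18799 of the 34133 genes that the deposited table lists, namely those with an FPKM of at least 1 in ros1 control or in WT control. FPKM is a level corrected for transcript length and library size (fragments per kilobase, relative to all mapped fragments). Of these genes, 17234 reached this floor in both groups. The peroxidase gene AT5G15180, at 0.709 in ros1 control and 0.999897 in WT control, stands just outside it.

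RNA was sequenced in 8 libraries, 2 for each of ros1 control, WT control, ros1 IM and WT IM. Each library held the entire rosettes of 2 plants about 3 weeks old, collected 48 h after the treatment of the IM groups with 10.6 g per ha of the herbicide imazethapyr. WT is the accession Col-0, and ros1 is a T-DNA line of the SALK collection with its insertion in the 5′ untranslated region of ROS1, described by the study as hypomorphic, so that some function may remain. According to the paper, its mutants share the Col-0 background. Both control groups went without imazethapyr and share their age, growth conditions and collection time, and what else the plants titled mock received is not stated in the sources used here.

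The authors deposited 1 FPKM per gene and group, pooled over the 2 libraries. No value per library was analysed here, so there is no standard deviation, standard error or test, and every ratio below is a description of 2 pooled values. Library depth is not in these tables, so no counting interval can be given. "Higher" and "lower" are used of ratios of at least 2 between ros1 control and WT control unless a value stands beside them. The SA regulator gene SARD1 (ratio 2.00015) and the noncoding AT1G07128 (1.99861) stand on either side of that threshold upward, and AT3G60980 (2.00075) and AT5G19230 (1.99942) downward. Whole rosettes are bulk tissue, in which fewer cells of a type and less RNA per cell cannot be told apart.

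ROS1 encodes a DNA glycosylase that cuts out methylated cytosine and so opposes the RNA-directed DNA methylation pathway, which silences transposons and some genes near them. Salicylic acid (SA) is the hormone of defence against biotrophic pathogens. It is made through isochorismate, sensed by the NPR proteins and read out as a rise of secreted pathogenesis-related (PR) proteins. Jasmonic acid, ethylene and abscisic acid serve other stress responses, and jasmonic acid and SA often act against each other.

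ROS1 itself (AT2G36490, chr2:15308021-15314807 in TAIR10) had an FPKM of 19 in ros1 control, against 25 in WT control, a ratio of -0.40 on the log2 scale. In treated plants the values were 4.08 in ros1 IM, against 16.7 in WT IM. The gene was thus below WT in both pairs, by 1.32-fold without and 4.09-fold with the herbicide. The values that the paper gives for the reduced ROS1 transcript of this line are those of the treated pair. The other glycosylases of its family were close to WT or above it, DME at 20.1 in ros1 control, against 13.4 in WT control and DML2 at 8.56 in ros1 control, against 7.58 in WT control, while DML3 stayed under the floor in both groups. The other members of the demethylation pathway had ratios within 2-fold as well. They include the acetyltransferase IDM1 (9.98 in ros1 control, 10.5 in WT control), its partner IDM2 (1.98, 1.23), the methyl-CpG binding protein MBD7 (12.5, 9.98) and the RNA-binding protein ROS3 (18.7, 17.5). The repair enzymes ZDP, APE1L and LIG1 lay between 1.04-fold lower and 1.1-fold higher. Of 11 genes of DNA methylation, none was 2-fold higher or lower. The ratios in that list ran between RDR2, an RNA-dependent RNA polymerase at 1.59 in ros1 control, against 2.58 in WT control, and NRPE1, the largest subunit of Pol V at 5.77 in ros1 control, against 3.37 in WT control.

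Across the 18799 genes the groups were centred on each other, with a median log2 ratio of 0.01, and 13187 genes (70.1%) differed by less than 1.5-fold. At least 2-fold higher in ros1 control were 1232 genes (6.55%), and 1972 (10.5%) were at least 2-fold lower. The counts of each list and family below are to be read beside these shares. The lists were chosen with earlier results of these data known. At 4-fold there were 564 higher and 803 lower genes, and at 8-fold 341 and 462. The shares depended on the level of the gene. Among genes with an FPKM between 1 and 2 in the group where they were higher, 17.7% were higher and 22.4% lower in ros1 control. Among those of at least 200, the shares were 2.44% and 6.65%. A 2-fold difference was thus more frequent among weakly transcribed genes. The share of lower genes ran between 9.19% on chromosome 3 and 12.4% on chromosome 4, and that of higher genes between 6.15% on chromosome 5 and 7.03% on chromosome 4.

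**Figure D1:**
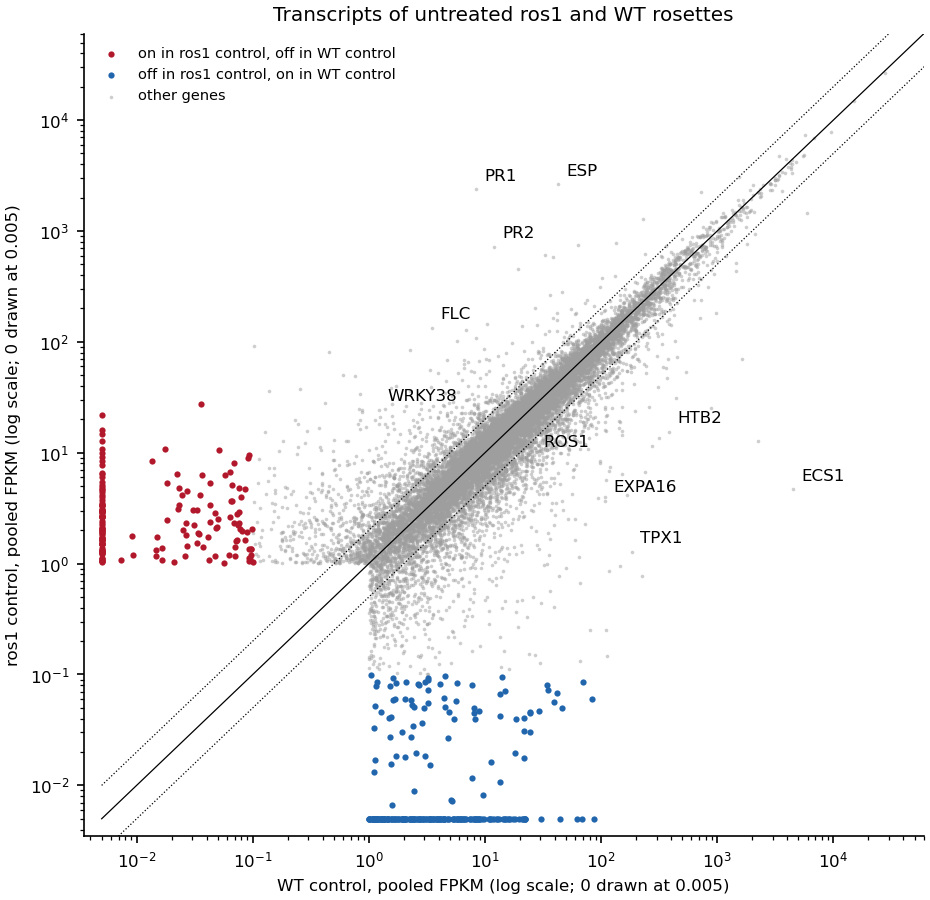
Pooled FPKM of each gene past the floor in ros1 control (vertical, log scale) against WT control (horizontal, log scale), with 0 drawn at 0.005; the solid line marks equal values and the dotted lines a ratio of 2. The cloud follows the line of equal values, PR1, ESP and PR2 stand above it and ECS1 and TPX1 below it, and the 163 genes on in ros1 control (red) and the 262 off in it (blue) run along the edges.

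Genes of SA synthesis and signalling were higher in ros1 control as a list, 17 of 27 members higher and 2 lower, with a median log2 ratio of 1.37 beside 0.01 over all genes. The list spans synthesis enzymes, receptors, transcription factors and enzymes that turn SA over. The synthesis steps differed from each other. ICS1, the isochorismate synthase of most SA, had an FPKM of 27.1 in ros1 control, against 4.31 in WT control, and its paralog ICS2 had 1.45 in ros1 control, against 3.04 in WT control. EDS5, which exports isochorismate from the plastid, had 15.9 in ros1 control, against 4.09 in WT control. PBS3, which joins glutamate to isochorismate, had 17.3 in ros1 control, against 2.47 in WT control. EPS1, of the last step, had 5.68 in ros1 control, against 7.6 in WT control, a difference within 1.5-fold. The path up to the glutamate conjugate was thus 3.9- to 7.03-fold higher in ros1 control, without its last enzyme.

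Of the genes that turn SA over, 1 had the largest ratio of the list. UGT76B1, a glucosyltransferase that dampens SA defence, had an FPKM of 6.49 in ros1 control, against 0.0222 in WT control, a ratio of 292. The SA hydroxylases DLO1 (6.33 in ros1 control, against 0.517 in WT control) and DMR6 (203 in ros1 control, against 27 in WT control) were 12.2- and 7.5-fold higher. UGT74F2, which joins glucose to SA, was 3.0-fold lower, at 1.76 in ros1 control, against 5.29 in WT control. Among the transcription factors, WRKY38 had 24.5 in ros1 control, against 1.23 in WT control and WRKY62 5.31 in ros1 control, against 0.313 in WT control. Both are known as repressors of basal defence that act with SA. The NPR1 interactors NIMIN1 (62.2 in ros1 control, against 14.1 in WT control) and NIMIN2 (99.6 in ros1 control, against 25.6 in WT control), which hold PR1 induction back, were higher as well. Of these genes, DMR6, WRKY38, NIMIN1 and NIMIN2 reached the floor in both groups and were higher, while UGT74F2 was lower. UGT76B1, DLO1 and WRKY62 reached it in ros1 control alone, so their direction follows from the floor. The lipase-like partners PAD4 and SAG101 were 3.31- and 2.18-fold higher, while EDS1, which pairs with both, had 38 in ros1 control, against 35.5 in WT control. NDR1, which CC-type receptors use, had 23.2 in ros1 control, against 24.6 in WT control, and the SA receptor NPR1 had 25 in ros1 control, against 20.1 in WT control.

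Secreted PR proteins were higher in ros1 control. PR1 (AT2G14610, chr2:6241704-6242463 in TAIR10) had an FPKM of 2364 in ros1 control, against 8.41 in WT control, which is 281-fold and, on the higher side, the largest ratio of any gene that reached 10 in 1 group and 1 in both. PR2, a beta-1,3-glucanase, had 722 in ros1 control, against 11.8 in WT control, and PR5, a thaumatin-like protein, had 741 in ros1 control, against 62.8 in WT control. A chitinase gene, CHI (AT2G43570), had 85 in ros1 control, against 2.25 in WT control. The same direction held for these genes in treated plants, where PR1 had 5111 in ros1 IM, against 688 in WT IM and PR2 1281 in ros1 IM, against 304 in WT IM. PR1 and PR2 were abundant in WT IM too, so that the ratio was 7.43 and 4.21 there.

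The list of systemic acquired resistance was split, and it also holds PR genes such as PR1, so its count is not separate from the genes above. Of its 15 members past the floor, 8 were higher in ros1 control (53.3%) and 3 lower (20%), beside 6.55% and 10.5% over all genes. FMO1, which makes the mobile signal N-hydroxypipecolic acid, had 4.56 in ros1 control, against 0.155 in WT control, and the glutaredoxin GRX480 had 21 in ros1 control, against 1.25 in WT control. SARD4, a reductase of pipecolic acid synthesis, had 2.76 in ros1 control, against 40 in WT control and was 14.5-fold lower. ALD1, the aminotransferase before it, stayed under the floor (0.718 in ros1 control, 0.0214 in WT control). The synthesis genes of this signal thus did not go one way. ACD6, an ankyrin membrane protein that raises SA, had 102 in ros1 control, against 434 in WT control, PCC1 had 519 in ros1 control, against 1459.7 in WT control, and the lipid transfer-like AZI1 had 1.92 in ros1 control, against 3.49 in WT control.

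**Figure D2:**
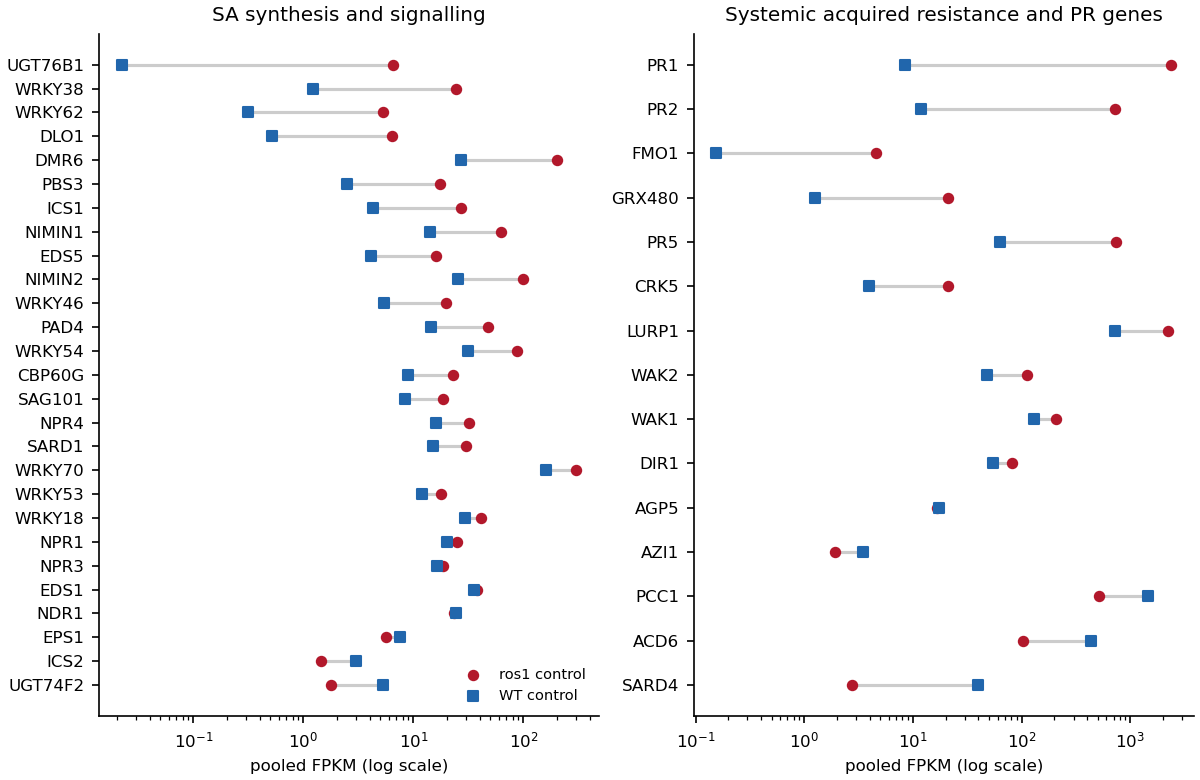
Pooled FPKM (log scale) of each SA gene (left) and each gene of systemic acquired resistance and the PR group (right) past the floor, with ros1 control as red circles and WT control as blue squares. PR1 stands at 2364 in ros1 control and 8.41 in WT control, and SARD4 and ACD6 lie on the other side, with WT control above ros1 control.

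WRKY transcription factors bind the W-box, whose core is TTGAC. Of 49 WRKY genes past the floor, 16 were higher (32.7%) and 6 lower (12.2%) in ros1 control, with a median log2 ratio of 0.43. WRKY51 had an FPKM of 39.6 in ros1 control, against 1.7 in WT control, and WRKY75 had 1.76 in ros1 control, against 0.211 in WT control. WRKY41 was listed at 0 in ros1 control, against 2.37 in WT control, and WRKY48 had 1.43 in ros1 control, against 5.42 in WT control. TTG2, which acts in trichomes and seed coats, had 1.16 in ros1 control, against 3.99 in WT control. The family therefore held members on both sides, with more of them above WT. A W-box core on either strand was found within 250 bases before the RefSeq gene start for 628 of the 1139 protein-coding genes at least 2-fold higher (55.1%) and for 291 of 500 at least 4-fold higher (58.2%). The share was 44.1% among 1802 lower genes, 44.6% among all 18255 with a promoter past the floor, and 45% among all 26692. Higher genes held it more often than lower ones by these counts, and no test of the difference was made. Lists with more lower than higher members varied. The W-box core stood before 14 of 25 abscisic acid genes (56%) and 8 of 15 auxin genes (53.3%). It stood before 8 of 17 flavonoid genes (47.1%) and 4 of 15 cold genes (26.7%). Some occurrences of TTGAC overlap the core TGACG of the as-1 motif, in TTGACG.

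Cysteine-rich receptor-like kinases (CRKs) are membrane kinases of which many respond to SA and pathogens. They went with the SA genes, 13 of 26 higher and 2 lower in ros1 control, with a median log2 ratio of 0.98. CRK23 had an FPKM of 12.7 in ros1 control, against 0.181 in WT control, CRK7 28.1 in ros1 control, against 0.418 in WT control and CRK39 1.89 in ros1 control, against 0.0337 in WT control. CRK4 was the most abundant of the 4 furthest above WT, at 109 in ros1 control, against 8.42 in WT control. The exceptions were CRK41, at 3.5 in ros1 control, against 12.8 in WT control, and CRK42, at 6.89 in ros1 control, against 15.1 in WT control. A W-box core was found before 17 of the 26 genes (65.4%).

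Wall-associated kinases bind pectin. Of 6, 3 were higher and none lower, namely WAKL4 (3.4 in ros1 control, against 0.0428 in WT control), WAK3 (13.1 in ros1 control, against 0.496 in WT control) and WAK2 (111 in ros1 control, against 48.1 in WT control), while WAK1 (206 in ros1 control, against 131 in WT control), WAKL7 (5.32 in ros1 control, against 5.26 in WT control) and WAKL6 (3.51 in ros1 control, against 3.73 in WT control) stayed within 2-fold. Receptor-like proteins, which lack a kinase domain, were spread to both sides, with 10 of 38 higher (26.3%) and 8 lower (21.1%). RLP20 had 1.52 in ros1 control, against 0.0331 in WT control, RLP39 4.31 in ros1 control, against 0.156 in WT control and RLP38 0.0666 in ros1 control, against 13.4 in WT control. RLP23, the receptor of a peptide of necrosis-inducing proteins, had 52 in ros1 control, against 3.93 in WT control.

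Pattern receptors and their helpers as a list were mostly within 2-fold, with 3 of 23 higher (13%) and 5 lower (21.7%), beside 6.55% and 10.5% over all genes. The flagellin receptor FLS2 had an FPKM of 9.14 in ros1 control, against 3.19 in WT control, and SOBIR1, the kinase partner of receptor-like proteins, had 147 in ros1 control, against 65.3 in WT control. EFR, which senses the bacterial elongation factor, had 4.22 in ros1 control, against 2.26 in WT control. The 5 lower members were all NLR receptors, the intracellular proteins that recognise pathogen effectors. RPM1, a CC-type NLR against Pseudomonas (AT3G07040, chr3:2225952-2229024), was listed at 0 in ros1 control and at 6.55 in WT control. RPP8, which acts against downy mildew, had 11.1 in ros1 control, against 52.2 in WT control, and RPP4 had 6.79 in ros1 control, against 22.5 in WT control. RPP1 was 2.42-fold and RPP13 2.21-fold lower. Other NLR genes were close to WT, among them ZAR1 (88.9 in ros1 control, against 88.5 in WT control).

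NLR genes overall were lower more often than higher. Among 76 TIR-type genes, 29 were lower and 11 higher in ros1 control, with a median log2 ratio of -0.28, and 9 were off in ros1 control while 1 was off in WT control. These shares, 38.2% lower and 14.5% higher, compare with 10.5% and 6.55% over all genes. AT4G36140 was listed at 0 in ros1 control and at 6.52 in WT control. AT4G16920 went the other way, at 8.83 in ros1 control, against 0.112 in WT control, as did AT4G11170, at 1.2 in ros1 control, against 0.00925 in WT control. Of 31 CC-type genes, 8 were lower (25.8%) and 4 higher (12.9%). AT1G58602 had 1.15 in ros1 control, against 64.5 in WT control and AT1G61190 4.21 in ros1 control, against 56.5 in WT control, and in the other direction AT1G12290 had 4.55 in ros1 control, against 0.953 in WT control. NLR genes lie in clusters of similar copies, among which the reads of a shared stretch may be split or lost, so single ratios are uncertain. According to the paper, a smaller share of ros1 reads than of WT reads aligned to the reference. What part this has in the NLR counts was not tested.

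**Figure D3:**
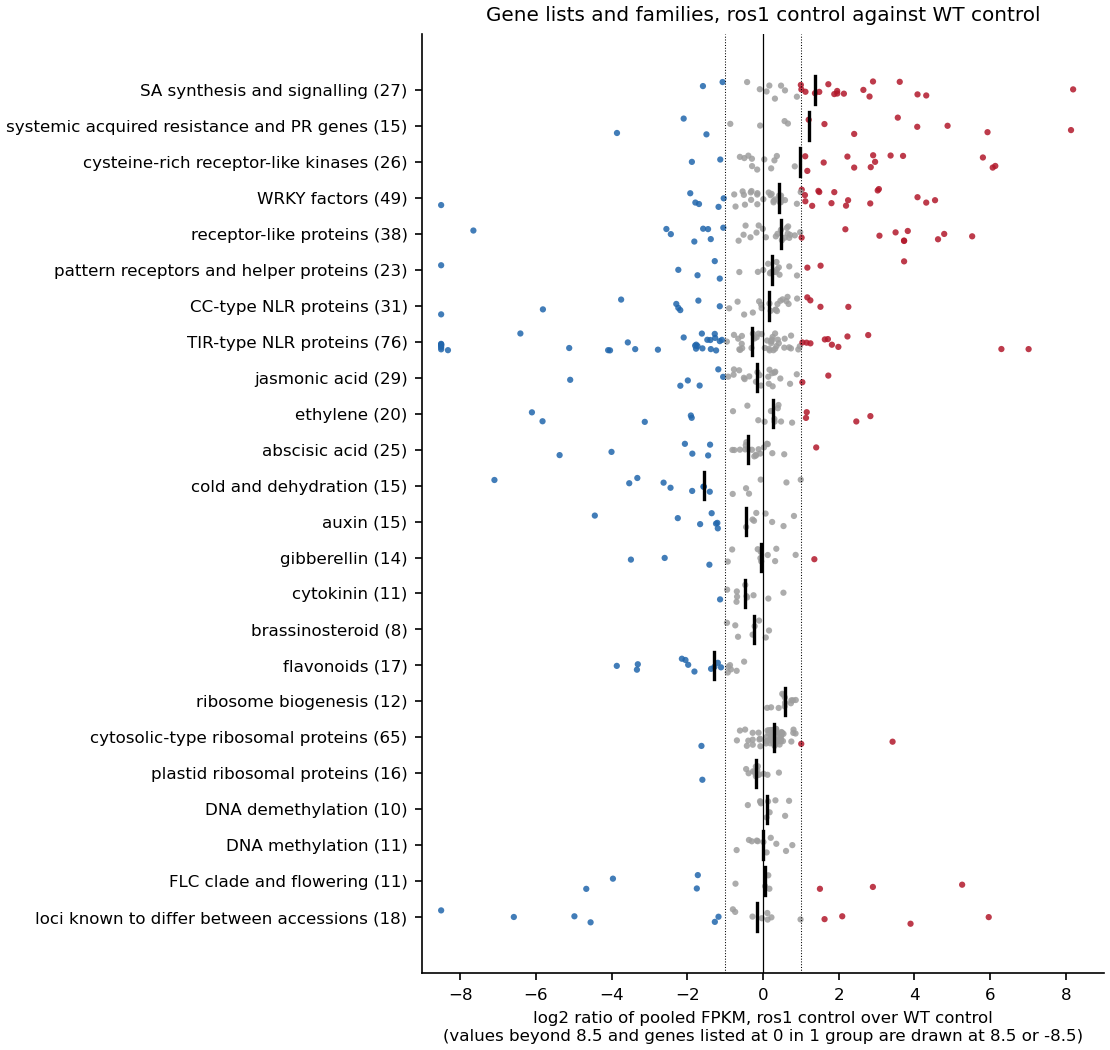
Log2 ratio of pooled FPKM, ros1 control over WT control, for each member past the floor (points) of 24 lists and families, with the number of members in brackets, the median as a black bar and dotted lines at a ratio of 2; genes at 0 in 1 group are drawn at 8.5 or -8.5. Red points are at least 2-fold higher, blue points at least 2-fold lower. SA genes and CRKs lie to the right, cold and flavonoid genes to the left, and the ribosome biogenesis genes all lie right of 0 within 2-fold.

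The secretory chaperones of the endoplasmic reticulum, which fold secreted proteins such as the PR proteins, stayed near WT. Of 10 past the floor, 1 was higher and none lower. BIP1 had 258 in ros1 control, against 289 in WT control, BIP2 237 in ros1 control, against 254 in WT control, CNX1 262 in ros1 control, against 266 in WT control and the luminal HSP90 SHD 298 in ros1 control, against 278 in WT control. CRT3, a calreticulin needed by EFR, was the higher one, at 223 in ros1 control, against 73.1 in WT control. CRT1A, CRT1B, SDF2 and ERDJ3B lay within 1.5-fold, and PDIL1-1 was 1.74-fold below WT.

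The camalexin pathway makes the main phytoalexin from tryptophan. Of 7 genes, 3 were higher in ros1 control (42.9%, beside 6.55% over all genes) and 1 lower (14.3%, beside 10.5%), with a median log2 ratio of 0.14. PAD3, the last enzyme, had an FPKM of 14.7 in ros1 control, against 1.85 in WT control. CYP71A13 (20.4 in ros1 control, against 3.93 in WT control) and CYP71A12 (3.98 in ros1 control, against 0.577 in WT control), which act on indole acetaldoxime, were 5.18- and 6.9-fold higher. CYP79B2, which makes indole acetaldoxime, had 22.5 in ros1 control, against 53.2 in WT control, and CYP79B3 32.1 in ros1 control, against 55.9 in WT control. The peptidase GGP1 (283 in ros1 control, against 256 in WT control) and the activator WRKY33 (22.8 in ros1 control, against 25.2 in WT control) were close to WT.

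Of 29 genes of jasmonic acid, 2 were higher (6.9%, beside 6.55% over all genes) and 6 lower (20.7%, beside 10.5%), with a median log2 ratio of -0.15. The storage proteins VSP2 and VSP1, which are classical jasmonate outputs, stood lowest. VSP2 had an FPKM of 0.998 in ros1 control, against 34 in WT control, which is 34.1-fold, and VSP1 had 5.82 in ros1 control, against 26.4 in WT control. JMT, which methylates jasmonate, had 1.98 in ros1 control, against 7.84 in WT control, and AOC4, an allene oxide cyclase, had 12.4 in ros1 control, against 39.4 in WT control. The first enzyme LOX2 (723 in ros1 control, against 800.4 in WT control), the receptor COI1 (18.8 in ros1 control, against 15.9 in WT control) and the master factor MYC2 (37.7 in ros1 control, against 39.1 in WT control) were close to WT. The 2 higher genes were TAT3, a tyrosine aminotransferase (26.7 in ros1 control, against 8.06 in WT control), and CYP94C1, which oxidises the active hormone (1.5 in ros1 control, against 0.731 in WT control).

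Genes of ethylene were split, with 4 of 20 higher (20%) and 5 lower (25%), beside 6.55% and 10.5% over all genes. The defensins that jasmonate and ethylene induce together were lower, PDF1.2A at 0.77 in ros1 control, against 43.5 in WT control and PDF1.2C at 0.439 in ros1 control, against 30.2 in WT control, and PDF1.2B at 2.59 in ros1 control, against 9.55 in WT control. These 3 genes are close copies, whose reads may be split. Their activator ORA59 went the other way, at 2.05 in ros1 control, against 0.372 in WT control, as did the ethylene factor ERF2, at 45.6 in ros1 control, against 6.39 in WT control. ERF6 had 0.734 in ros1 control, against 6.39 in WT control and ACS6, an enzyme of ethylene synthesis, 11 in ros1 control, against 41.1 in WT control. The hevein-like HEL, also called PR4, had 78.1 in ros1 control, against 35.5 in WT control, and the receptor ETR2 2.22 in ros1 control, against 0.997 in WT control. Over all 10 plant defensin genes past the floor, 4 were higher and 3 lower, among the higher ones PDF1.3 at 18.7 in ros1 control, against 7.22 in WT control, PDF1.4 at 1.75 in ros1 control, against 0.637 in WT control and the defensin-like AT4G22212 at 6.29 in ros1 control, against 1.51 in WT control.

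Genes of cold and dehydration were lower in ros1 control, 9 of 15 and none higher, with a median log2 ratio of -1.56. RD29A (AT5G52310, chr5:21240849-21243613), a dehydration-responsive protein, had an FPKM of 0.865 in ros1 control, against 118 in WT control, which is 136-fold. The small proteins KIN1 (1.12 in ros1 control, against 13 in WT control) and KIN2 (181 in ros1 control, against 984 in WT control) and the chloroplast protectants COR15A (53.4 in ros1 control, against 533 in WT control) and COR15B (72.7 in ros1 control, against 449 in WT control) were 5.43- to 11.6-fold lower. KIN1 with KIN2, and COR15A with COR15B, are neighbouring copies. The cold factor CBF3 was near the floor, at 0.59 in ros1 control, against 1.03 in WT control, with CBF1 and CBF2 under it in both groups, and the upstream factor ICE1 had 45.4 in ros1 control, against 47.3 in WT control. ERD7 (71.5 in ros1 control, against 46.5 in WT control) and the zinc finger factor ZAT12 (8.85 in ros1 control, against 4.43 in WT control) were the 2 members above WT. In treated plants RD29A had 1.16 in ros1 IM, against 220.5 in WT IM, and COR15A 8.74 in ros1 IM, against 1510.4 in WT IM.

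CBF factors bind the DRE, whose core is CCGAC. It was found within 250 bases before the start of 6 of the 15 cold genes (40%), beside 13.1% of genes past the floor and 11.9% of all protein-coding genes. The core was not particular to cold genes, as 8 of 15 auxin genes (53.3%) held it too. The windows of RD29A (chr5:21240467-21240716, plus strand) and COR15A (chr2:17712331-17712580, minus strand), from RefSeq TAIR10.1 and read 5′ to 3′ on the strand of the gene, are shown because these genes are known DRE targets. They held 3 and 2 matches on either strand, which are in capitals (GTCGG is the core on the other strand).
RD29A: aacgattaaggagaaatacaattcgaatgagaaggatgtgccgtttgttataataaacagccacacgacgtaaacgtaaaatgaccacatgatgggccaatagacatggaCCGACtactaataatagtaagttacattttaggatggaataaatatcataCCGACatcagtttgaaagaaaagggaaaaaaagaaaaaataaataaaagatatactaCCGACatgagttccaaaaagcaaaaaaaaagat
COR15A: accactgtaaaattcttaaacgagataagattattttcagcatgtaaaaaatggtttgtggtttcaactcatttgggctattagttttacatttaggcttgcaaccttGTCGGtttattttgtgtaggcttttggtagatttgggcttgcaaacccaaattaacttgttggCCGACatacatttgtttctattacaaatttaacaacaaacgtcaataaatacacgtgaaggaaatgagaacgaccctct

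Of 25 genes of abscisic acid, 6 were lower (24%, beside 10.5% over all genes) and 1 higher (4%, beside 6.55%). The median log2 ratio was -0.39, with 19 of 25 below WT. RD20, a caleosin of lipid droplets, had an FPKM of 7.48 in ros1 control, against 119.7 in WT control. CYP707A3, a hydroxylase that breaks abscisic acid down, had 0.458 in ros1 control, against 19 in WT control, and the synthesis enzyme NCED5 had 0.518 in ros1 control, against 2.16 in WT control. AHG3, a phosphatase that holds the pathway back, had 19.1 in ros1 control, against 69.5 in WT control. RD29B was the higher one, at 1.23 in ros1 control, against 0.466 in WT control, next to RD29A on chromosome 5. NCED3, the rate-limiting enzyme of synthesis, had 1.57 in ros1 control, against 1.65 in WT control. Genes of synthesis, breakdown and response were thus among the lower ones. The ABRE core ACGTG was found before 16 of the 25 genes (64%), beside 23.2% of genes past the floor and 23.1% of all. It also stood before 8 of 15 genes of systemic acquired resistance and the PR group (53.3%).

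Of 15 auxin genes, 7 were lower (46.7%, beside 10.5% over all genes) and none higher, with a median log2 ratio of -0.45. The lower ones included early-response repressors of the Aux/IAA family, IAA6 at an FPKM of 0.311 in ros1 control, against 6.76 in WT control, IAA5 at 0.397 in ros1 control, against 1.89 in WT control and IAA19 at 3.51 in ros1 control, against 11.1 in WT control, and the influx carrier LAX3, at 4.07 in ros1 control, against 9.62 in WT control. The conjugating enzyme GH3.5 had 2.84 in ros1 control, against 1.61 in WT control, the response factor ARF19 3.62 in ros1 control, against 2.48 in WT control, the efflux carrier PIN7 39.2 in ros1 control, against 33.2 in WT control and GH3.3 3.26 in ros1 control, against 3.11 in WT control.

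In gibberellin, 3 of 14 genes were lower (21.4%, beside 10.5% over all genes) and 1 higher (7.14%, beside 6.55%). The oxidase GA3OX1, which makes the active hormone, had 4.99 in ros1 control, against 13.3 in WT control, and the inactivating oxidases GA2OX6 and GA2OX1 had 0.292 in ros1 control, against 3.28 in WT control and 0.274 in ros1 control, against 1.66 in WT control. The receptor GID1B was higher, at 4.64 in ros1 control, against 1.81 in WT control. In cytokinin, 1 of 11 genes was lower (9.09%, near the 10.5% over all genes). It was the type-A regulator ARR16, at 7.47 in ros1 control, against 16.4 in WT control. In all, 9 of 11 lay below WT, with a median log2 ratio of -0.47. None of 8 brassinosteroid genes passed 2-fold. DWF4 had 6.75 in ros1 control, against 10.7 in WT control, BR6OX2 7.86 in ros1 control, against 13.1 in WT control and the inactivating BAS1 0.811 in ros1 control, against 1.57 in WT control. CPD, ROT3, BZR1, BES1 and the receptor BRI1 (32.4 in ros1 control, against 30.8 in WT control) lay within 1.5-fold.

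Flavonoid genes were below WT without exception, 17 of 17, and 11 of them at least 2-fold, with a median log2 ratio of -1.28. The pathway starts at chalcone synthase TT4, which had an FPKM of 153 in ros1 control, against 372 in WT control. TT7, which adds a hydroxyl group to the B ring, had 1.36 in ros1 control, against 13.7 in WT control, and the anthocyanin transferase UF3GT had 1.06 in ros1 control, against 15.4 in WT control. The activator MYB75 had 1.43 in ros1 control, against 14.1 in WT control, and the related MYB90 0.257 in ros1 control, against 1.14 in WT control. The flavonol branch was lower too, with FLS1 at 58.2 in ros1 control, against 125 in WT control. The smallest difference was that of TT5, chalcone isomerase, at 45.4 in ros1 control, against 64.1 in WT control. Enzymes and activators of both branches thus lay on the same side. In treated plants TT4 had 43.8 in ros1 IM, against 1216 in WT IM and TT7 0.98 in ros1 IM, against 208 in WT IM, so the ratio was larger there.

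The G-box CACGTG, which bZIP and bHLH factors bind, was found before 7 of the 17 flavonoid genes (41.2%), beside 7.37% of genes past the floor and 6.58% of all. Each G-box also holds the ABRE core. The window before TT4 (chr5:4488226-4488475, plus strand, RefSeq TAIR10.1, 5′ to 3′ on the strand of the gene) is shown as the entry to the pathway, with its single G-box in capitals.
TT4: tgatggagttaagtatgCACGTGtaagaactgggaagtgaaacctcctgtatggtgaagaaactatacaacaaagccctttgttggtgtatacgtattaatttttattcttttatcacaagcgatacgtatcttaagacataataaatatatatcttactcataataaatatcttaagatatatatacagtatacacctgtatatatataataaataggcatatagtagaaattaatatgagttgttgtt

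Ribosome genes differed from WT by small ratios that pointed mostly one way. All 12 genes of ribosome biogenesis past the floor were above WT, none of them 2-fold, with a median log2 ratio of 0.58. Nucleolin NUC1 had an FPKM of 339 in ros1 control, against 203 in WT control, the snoRNP protein NOP56 138 in ros1 control, against 75.9 in WT control, the fibrillarin FIB2 80.1 in ros1 control, against 46.3 in WT control and the maturation factor BRX1-1 15.4 in ros1 control, against 9.14 in WT control. The smallest ratios were those of FIB1 (164 in ros1 control, against 152 in WT control) and SMO4 (58.7 in ros1 control, against 50.6 in WT control). Of 65 cytosolic-type ribosomal protein genes, 52 lay above WT and 13 below, with a median log2 ratio of 0.28, and 2 were higher and 1 lower. Summed over all 71 genes of the family, with those under the floor, the FPKM was 20421 in ros1 control and 17210.4 in WT control. AT2G37600, of the L36e family, had 191 in ros1 control, against 105 in WT control, while AT5G02450, another member of that family, had 236 in ros1 control, against 359 in WT control. The acidic protein gene AT3G44590 was the lower one, at 23.7 in ros1 control, against 73.2 in WT control. Paralogs of 1 ribosomal protein thus stood on opposite sides, and reads of such copies may be split between them.

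Plastid ribosomal proteins did not share this direction, as 13 of 16 lay below WT and 3 above, with a median log2 ratio of -0.18 and 1 lower gene. That gene was PSRP4, a plastid-specific protein, at 239 in ros1 control, against 725 in WT control. PRPL11 had 505 in ros1 control, against 687 in WT control, and PRPL35 732 in ros1 control, against 724 in WT control. In treated plants 11 of the 15 with both values were at least 2-fold below WT IM in ros1 IM. No test of the difference between the cytosolic and plastid groups was made.

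The site II motif TGGGCC and the telo box AAACCCTA are known in promoters of cytosolic ribosomal proteins. Site II was found before 34 of the 65 genes (52.3%) and 7 of the 12 biogenesis genes (58.3%), beside 17.3% of genes past the floor and 13.9% of all. The telo box was found before 13 (20%) and 3 (25%), beside 3.59% and 4.44%. Of the 16 plastid ribosomal genes, 2 held site II (12.5%) and 3 the telo box (18.8%). The window of AT2G37600 (chr2:15775375-15775624, minus strand, RefSeq TAIR10.1, 5′ to 3′ on the strand of the gene) is shown as a gene with both motifs, 3 of site II and 1 of the telo box, in capitals, with GGCCCA and TAGGGTTT as their forms on the other strand.
AT2G37600: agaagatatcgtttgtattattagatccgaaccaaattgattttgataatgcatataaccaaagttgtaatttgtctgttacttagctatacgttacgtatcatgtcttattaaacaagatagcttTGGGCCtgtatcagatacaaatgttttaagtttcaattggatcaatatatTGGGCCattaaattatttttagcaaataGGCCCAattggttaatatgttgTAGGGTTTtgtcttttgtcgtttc

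**Figure D4:**
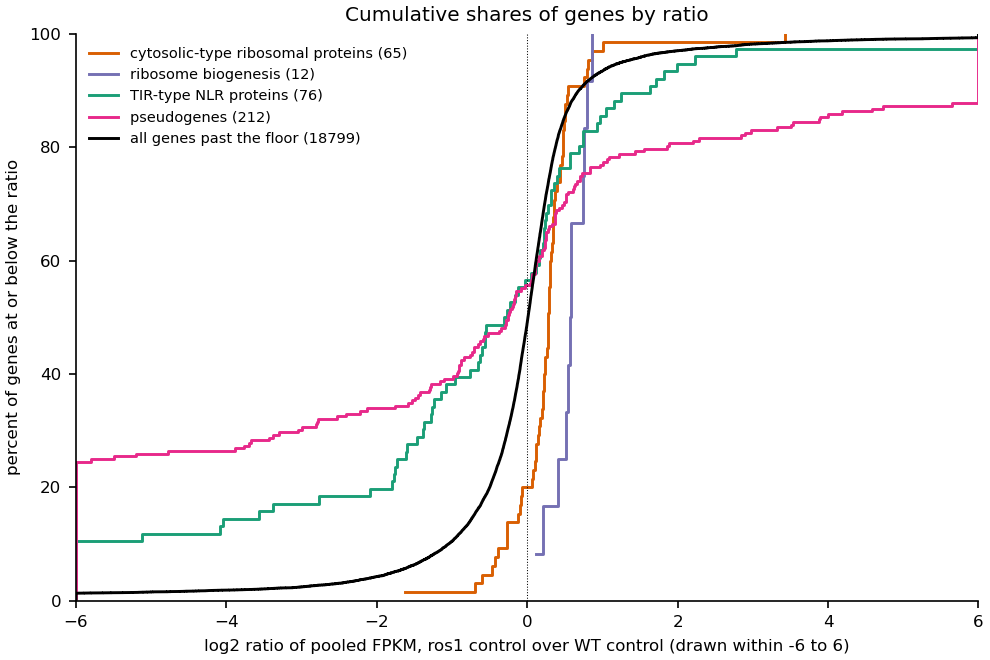
Percent of genes at or below each log2 ratio of pooled FPKM, ros1 control over WT control (drawn within -6 to 6), for cytosolic-type ribosomal proteins, ribosome biogenesis, TIR-type NLR proteins, pseudogenes and all 18799 genes past the floor. The curves of both ribosome groups lie right of the black curve near 0, with medians of 0.28 and 0.58, while NLR genes and pseudogenes spread far to both sides.

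Flowering regulators differed by large ratios. FLC, the MADS repressor of flowering (AT5G10140, chr5:3173497-3179448), had an FPKM of 135 in ros1 control, against 3.51 in WT control, which is 38.3-fold. FRI, its activator, had 5.23 in ros1 control, against 4.74 in WT control, a ratio near 1. Of the targets that FLC represses, SOC1 was lower, at 7.58 in ros1 control, against 25 in WT control. The florigen FT had 0.159 in ros1 control, against 4.05 in WT control, and TSF had 0.447 in ros1 control, against 1.5 in WT control. FT and TSF reached the floor in WT control alone, so their direction follows from the floor. The FLC-like genes went different ways. MAF1, also called FLM, had 3.02 in ros1 control, against 47.1 in WT control, MAF4 had 8.29 in ros1 control, against 1.11 in WT control and MAF5 1.63 in ros1 control, against 0.573 in WT control. MAF2 (20.7 in ros1 control, against 34.3 in WT control), MAF3 (13.8 in ros1 control, against 13.3 in WT control) and SVP (50.7 in ros1 control, against 45.1 in WT control), the partner of FLC, stayed within 2-fold. MAF2 to MAF5 lie side by side on chromosome 5 as similar copies. FLC had the same levels in treated plants, 131 in ros1 IM, against 2.52 in WT IM, and MAF1 likewise, with 3.1 in ros1 IM, against 59.7 in WT IM.

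Loci that are known to vary among natural accessions held some of the largest ratios. Of 18 past the floor, 4 were higher (22.2%) and 6 lower (33.3%), beside 6.55% and 10.5% over all genes. The loci were chosen with earlier results of these data known, so these shares do not describe such loci in general. ECS1, a small cell wall protein (AT1G31580, chr1:11311169-11311989), had an FPKM of 4.71 in ros1 control, against 4479.9 in WT control, which is 951-fold lower and, on the lower side, the largest difference among genes with at least 10 in 1 group and at least 1 in both. In treated plants it had 4.85 in ros1 IM, against 2293 in WT IM. HR4, a homolog of the mildew resistance gene RPW8, had 0.409 in ros1 control, against 39.1 in WT control, while its neighbour HR3 had 13.3 in ros1 control, against 4.3 in WT control. QQS, an orphan gene whose level depends on DNA methylation nearby, had 0.102 in ros1 control, against 3.21 in WT control.

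Glucosinolates are the defence compounds of the cabbage family, and genes that set their type among accessions were in this list. ESP, the epithiospecifier protein that turns their breakdown to nitriles (AT1G54040, chr1:20170715-20173949), had an FPKM of 2631 in ros1 control, against 42.2 in WT control, and ESM1, which opposes it, had 70 in ros1 control, against 1644 in WT control. AOP2, a dioxygenase of the side chain, had 578 in ros1 control, against 38.8 in WT control, and MAM3, of chain elongation, 163 in ros1 control, against 38.2 in WT control. MAM1 next to it had 254 in ros1 control, against 307 in WT control, and the S-oxygenase GSOX1 had 55.1 in ros1 control, against 56.3 in WT control. The pair ESP and ESM1 thus stood in opposite order in the 2 genotypes, with ESP the more abundant FPKM in ros1 control and ESM1 in WT control. This order was the same in treated plants, where ESP had 792 in ros1 IM, against 33 in WT IM and ESM1 5.67 in ros1 IM, against 1158 in WT IM. Other loci were within 2-fold, among them the sodium transporter HKT1 (2.29 in ros1 control, against 2.11 in WT control), the copper ATPase HMA5 (1.88 in ros1 control, against 1.61 in WT control), PHYC (9.51 in ros1 control, against 15.8 in WT control) and BRX (1.97 in ros1 control, against 1.81 in WT control), while the molybdate transporter MOT1 had 3.04 in ros1 control, against 7.33 in WT control.

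Beyond the lists, the genes with the largest ratios at an FPKM of at least 10 in 1 group and 1 in both were of mixed kinds. On the higher side, after PR1, ESP, PR2, FLC and CHI, came AT1G63390, a monooxygenase-like gene, at an FPKM of 38.4 in ros1 control, against 1.55 in WT control, and AT5G10760, an aspartyl protease family gene, at 458 in ros1 control, against 19.1 in WT control. PCR1, a cadmium resistance protein, had 601 in ros1 control, against 33 in WT control, AT1G13470, of unknown function, 127 in ros1 control, against 6.81 in WT control, and the receptor kinase gene AT1G56120 102 in ros1 control, against 5.78 in WT control. AT3G22600, a lipid transfer protein gene, had 27.4 in ros1 control, against 1.59 in WT control, and MPC, a maternally expressed gene, 19.6 in ros1 control, against 1.14 in WT control. WRKY51, WRKY38 and the retroelement SADHU3-2 complete the 15. On the lower side, after ECS1, came AT3G22235, a cysteine-rich stress protein gene, at 12.7 in ros1 control, against 2261 in WT control, and the peroxidase TPX1, at 1.28 in ros1 control, against 184 in WT control. The NLR gene AT1G58602 and AT3G24420, a hydrolase family gene at 4.19 in ros1 control, against 165 in WT control, followed. The cell wall proteins EXPA16 (3.71 in ros1 control, against 108 in WT control) and AGP17 (3.87 in ros1 control, against 94.4 in WT control), the chloroplast membrane protein gene CcdA (4.02 in ros1 control, against 108 in WT control), the WPP domain gene WPP1 (1.19 in ros1 control, against 35.8 in WT control) and histone HTB2 (15.5 in ros1 control, against 383 in WT control) were 24.4- to 30-fold lower. HTB2 has close copies. The remaining 5 were AT3G28220, AT1G11850, AT1G67865, AT2G21860 and the noncoding AT3G12965, with ratios between 23.7 and 36.3.

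A set of genes was on in 1 genotype and off in the other, with on defined as an FPKM of at least 1 and off as at most 0.1. There were 163 genes (0.867% of those past the floor) on in ros1 control and off in WT control, and 262 (1.39%) off in ros1 control and on in WT control. Of the 163, 80 were listed at exactly 0 in WT control, and of the 262, 177 at 0 in ros1 control. Most were weakly transcribed where on, with medians of 2.23 and 3.23, and 9 and 51 of them reached an FPKM of 10. Protein-coding genes made up 126 and 164, and pseudogenes 27 and 53.

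Among the genes on in ros1 control, AT2G05642, of a nucleic acid-binding family (chr2:2098087-2101167), was the most abundant, with an FPKM of 27.6 in ros1 control, against 0.0356 in WT control. MRD1 had 21.7 in ros1 control and was listed at 0 in WT control, though not in WT IM, where it had 8.94. MRD1 shares its locus with another identifier. AT4G04402 had 16 and the heat shock family gene AT4G32208 14.9 in ros1 control, and both were listed at 0 in WT control. Both kept this order in treated plants, at 9.86 and 29.3 in ros1 IM, against 0.0779 and 0.0491 in WT IM. AT1G02320 had 10.8 in ros1 control and 0 in the other 3 groups. The proline-rich AT1G63540 had 10.9 in ros1 control, against 0.0175 in WT control, and AT5G15360 10.5 in ros1 control, against 0.0509 in WT control.

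Among the genes off in ros1 control, the noncoding AT5G03285 (chr5:793514-793717) was listed at 0, against 86 in WT control. The most abundant protein-coding one was AT5G45490, a nucleoside triphosphate hydrolase gene, with 0.060 in ros1 control, against 82.7 in WT control. AT5G45500, a leucine-rich repeat gene of the same stretch of chromosome 5, had 0.0456 in ros1 control, against 24.6 in WT control and, in treated plants, 0.066 in ros1 IM, against 25.2 in WT IM. The pseudogene AT1G69140 was listed at 0 in ros1 control and at 68.9 in WT control, and AT2G27402, annotated as a plastid protein, at 0 and 62.1. AT5G42825 had 0.0564 in ros1 control, against 39.2 in WT control, AT4G07825 0.0301 in ros1 control, against 24.3 in WT control and AT2G24395, a chaperone-like gene, 0.0796 in ros1 control, against 34.3 in WT control. AT3G47675 was listed at 0 in both ros1 groups, against 22.1 in WT control and 9.51 in WT IM. Products annotated with disease resistance were 10 of the 262, and 2 of the 163 on in it. Of all 122 genes past the floor with such a product, 8.2% were thus off in ros1 control and 1.64% on, beside 1.39% and 0.867% over all genes. F-box genes off in ros1 control included AT1G19070, listed at 0 against 15.7 in WT control.

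**Figure D5:**
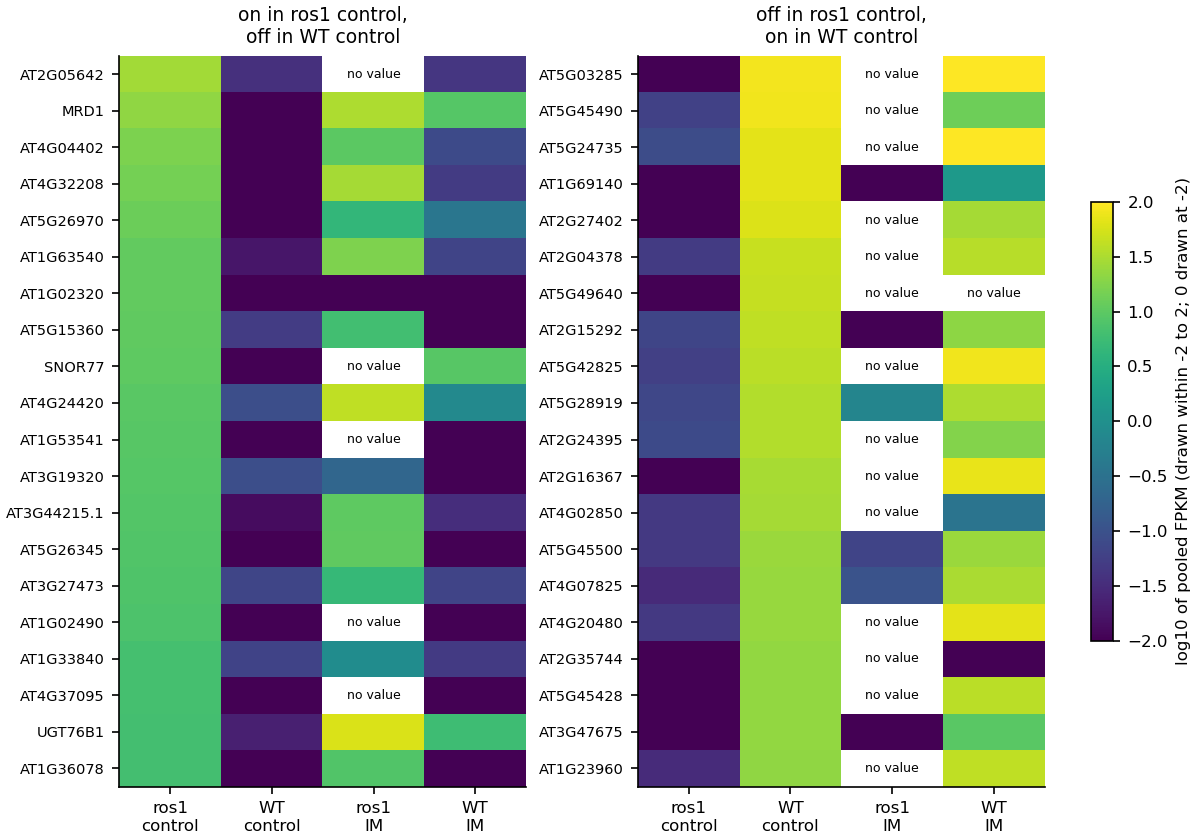
Log10 of pooled FPKM (colour, drawn within -2 to 2, with 0 at -2) in ros1 control, WT control, ros1 IM and WT IM for the 20 genes with the highest FPKM where on, for genes on in ros1 control (left) and off in ros1 control (right); white cells have no deposited value. AT4G32208 stays on in ros1 IM at 29.3, and AT5G45500 stays off there at 0.066.

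Untreated and treated plants come from different libraries, so the treated pair gives the same contrast in other rosettes, though ros1 IM values were found only for genes that a deposited list of called genes holds. Of the 262 genes off in ros1 control, 256 had a WT IM value, of which 202 had an FPKM of at least 1. Of 146 with a ros1 IM value, 117 were at most 0.1 there. Of the 163 on genes, 96 of 122 were at least 1 in ros1 IM, and 81 of 159 were at most 0.1 in WT IM. With the same thresholds, 36 genes were on and 92 off in ros1 in both pairs. Among all 16007 genes with both treated values and past the floor in them, 2158 (13.5%) were at least 2-fold higher in ros1 IM and 3736 (23.3%) at least 2-fold lower, over another set of genes than in the untreated pair.

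The direction without the herbicide mostly held with it. Of the 1232 higher genes, 1059 had both treated values, and 872 of these (82.3%) lay above WT IM in ros1 IM by any amount, 600 of them at least 2-fold. Of 1633 lower genes with both values, 1436 (87.9%) were lower, 1096 of them at least 2-fold. Over all 15687 genes past the floor with both values, 48.4% were higher and 51.5% lower. The opposite direction was found for 175 and 185 genes. At 8-fold, 257 of 280 higher and 269 of 298 lower genes kept their direction.

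Pseudogenes and noncoding RNA genes differed more often than protein-coding ones. Of 212 pseudogenes past the floor, 23.1% were higher and 39.2% lower in ros1 control, 12.7% were on and 25% off. Of 237 noncoding RNA genes other than small RNAs, 13.1% were higher and 25.7% lower, and 13.5% were off. Among 18258 protein-coding genes, 6.24% were higher, 9.87% lower, 0.69% on and 0.898% off. Among genes of all kinds with an FPKM between 1 and 2 where higher, 17.7% were higher and 22.4% lower, and the part of level in the pseudogene shares was not tested.

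Sadhu elements are non-coding retroposons of Arabidopsis of which some are silenced by DNA methylation and vary among accessions. Of 12 past the floor, 4 were higher and 4 lower in ros1 control, each by at least 3.63-fold. SADHU3-1 (chr3:15813075-15814056) had an FPKM of 6.25 in ros1 control, against 0.0366 in WT control, SADHU3-2 24.9 in ros1 control, against 1.37 in WT control and SADHU10-1 69.1 in ros1 control, against 4.68 in WT control. The copy AT2G10410.1 had 0.775 in ros1 control, against 225 in WT control, SADHU4-1 0.267 in ros1 control, against 19.2 in WT control and AT1G03420.1 3.64 in ros1 control, against 46.5 in WT control. Single copies were thus far apart between the genotypes, with no common direction. SADHU3-1 and SADHU3-2 kept theirs in treated plants, at 2.8 in ros1 IM, against 0.0302 in WT IM, and 12.3 in ros1 IM, against 1.2 in WT IM. The copies are similar to each other, and their reads may be split.

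On and off genes lay next to each other more often than other genes lay next to them. Of the 425, 96 (22.6%) had an on or off gene as the neighbour among genes past the floor, beside 3.95% of the other 18374 genes. The share was 29% for off genes and 12.3% for on genes. There were 43 runs of at least 2 such genes in a row, 32 of them in 1 direction, and 38 of them spanned more than 1 distinct locus. One of the longest, with 4 genes, was on chromosome 5 between 12966080 and 12975438. All its members were listed at 0 in both ros1 groups, AT5G34790.1 against 2.03 in WT control, AT5G34795 against 2.68, AT5G34800 against 2.35 and AT5G34810 against 1.3. The other, on chromosome 3 between 22501698 and 22552529, had both directions. AT3G60920 had 1.65 in ros1 control and was listed at 0 in WT control, while AT3G60960 had 0.0845 in ros1 control, against 5.72 in WT control. AT3G60930.2 was listed at 0 against 2.01 in WT control, and AT3G60965.1 had 0.0155 in ros1 control, against 1.56 in WT control.

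Markers of other organs and cell types give the makeup of the tissue. None of 6 flower and 3 seed markers reached the floor in either group, and of 5 root markers only SHR did, at 15.7 in ros1 control, against 13.8 in WT control. Leaf markers were near equal, Rubisco small subunit RBCS1A at 26309 in ros1 control, against 27669 in WT control and Rubisco activase RCA at 4339 in ros1 control, against 4380.4 in WT control, with the antenna gene LHCB2.1 as the exception, at 32 in ros1 control, against 115 in WT control. Their summed FPKM was 46482.4 in ros1 control and 48400.2 in WT control. The 3 guard cell markers FAMA, EPF1 and KAT1 lay within 1.5-fold. Of the 3 trichome factors, GL2 was lower, at 1.17 in ros1 control, against 4.92 in WT control. GL1 had 0.992 in ros1 control, against 4.61 in WT control, and ETC1 had 0.959 in ros1 control, against 2.55 in WT control. GL1 and ETC1 reached the floor in WT control alone, so their direction follows from the floor and shows no trend of the list. The sums of the 3 were 3.12 in ros1 control and 12.1 in WT control. The meristem genes STM (4.34 in ros1 control, against 3.93 in WT control) and KNAT1 (2.77 in ros1 control, against 2.26 in WT control) were close, while CLV3 was low in both, at 1.03 in ros1 control, against 0.0998 in WT control. The part of trichome cells in the results above was not tested. Of 9 reference genes, 8 were within 1.5-fold and UBQ10, a gene with near copies, was lower, at 163 in ros1 control, against 712 in WT control.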

How the data were processed

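The authors checked reads with FastQC 0.10.1, trimmed them with the FASTX-Toolkit, aligned them to TAIR10 with Bowtie2 and TopHat2, and quantified genes with Cufflinks and Cuffdiff, for which the sources used here give no version. The libraries were TruSeq libraries read from 1 end, without strand. Reads are aligned to the Col-0 sequence, so stretches that differ from it give fewer aligned reads. The paper reports that a smaller share of ros1 reads than of WT reads aligned. What part this has in the genes lower or off in ros1 control was not tested. The deposited FPKM were pooled by the authors over the 2 libraries of each group and used as they stand. Their p-values, q-values and fold changes from Cuffdiff hold the authors' own comparisons and were not used. Values held by more than 1 table were equal in all 71406 cases.

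Ratios of pooled FPKM, with no pseudocount, were computed in Python 3.11.15 with pandas 2.3.3 and numpy 2.4.6, and figures with matplotlib 3.10.9. The calculation was tested on simulated data. Of 34133 identifiers, 33389 matched a locus tag of RefSeq TAIR10.1, which gave products and promoters. Loci are those of the files, and 5384 identifiers share theirs with another. Values were found for 32494 genes in WT IM and 17284 in ros1 IM.

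There were 24 gene lists, 7 marker lists and 17 families by product name, and the members and lists were chosen with earlier results of these data known. Named are ROS1, up to 4 members each way of a list, whole lists of at most 10, the 15 largest ratios each way, the 20 most abundant on and off genes each way and the longest runs. Other genes of a list, among them ICS1, EDS5, PBS3, PAD4, NIMIN1, EDS1, MYC2 and NCED3, and the on or off gene AT1G19070 were named after their values were seen. Alternatives changed the floor, the fold, the pseudocount, the scaling, the genes kept and the promoter window.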

Additional observations from a re-analysis of the deposited data

Results flagged for a closer look

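For 28 genes the ratio was at least 4-fold in opposite directions without and with the herbicide, from pooled values, and the difference was not tested. The 4 among the named genes are given here. BGLU28, a beta-glucosidase, was higher by 2.96 on the log2 scale in ros1 control than in WT control (3.06 and 0.394), while treated plants had 0.244 in ros1 IM, against 2.78 in WT IM. AT3G24420, a hydrolase family gene, had a log2 ratio of -5.30 between ros1 control and WT control (4.19 and 165), while treated plants had 9.99 in ros1 IM, against 2.16 in WT IM. ERF6, an ethylene factor, had a log2 ratio of -3.12 (0.734 in ros1 control, 6.39 in WT control), while treated plants had 7.41 in ros1 IM, against 1.55 in WT IM. AT4G22230, a defensin-like gene, had a log2 ratio of 2.09 (4.48 in ros1 control, 1.05 in WT control), while it was listed at 0 in ros1 IM, against 1.27 in WT IM.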

How the results depend on the processing

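No paired analysis was possible because the deposited values are pooled over the 2 libraries of each group, and no replicate could be left out for the same reason. Against 1232 genes at least 2-fold higher in ros1 control, there were 682 where both groups had to reach the floor, 668 with a floor of 5 in 1 group, 2733 with no floor, 2257 at 1.5-fold and 564 at 4-fold. Against 1972 lower genes, the counts were 1252, 1265, 3539, 3355 and 803. Of all genes past 2-fold, 38.5% were higher, and between 34.6% and 43.6% under the alternatives, so lower genes were the more numerous under each. Genes on in ros1 control numbered 163, against 28 with on at 5, 80 with off at exactly 0 and 380 with off at 0.5. Genes off in ros1 control numbered 262, against 95 and 498 with on at 5 and off at 0.5. The telo box was 5.57 times as frequent in cytosolic ribosomal promoters as in all past the floor, and 3.06 times with windows of 500 bases, a window chosen after seeing the data. The cause of these differences was not tested, beyond that a floor or fold admits fewer or more genes. Of 154 named genes followed with a pseudocount of 1 and with centring on the median, 288 values kept their side of 2-fold and 20 fell under it. Among these were SARD1 at 0.95, NPR4 at 0.97 and CYP94C1 at 0.53 on the log2 scale with a pseudocount of 1. Neither setting could reverse a 2-fold ratio, as a pseudocount keeps its sign and the centring moved log2 ratios by 0.014. The direction was therefore not put to a test by them. Pooling leaves weak genes, as in the on and off sets, the least certain.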

Other observations

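Genes of senescence, photosynthesis and detoxification were not described above. Of 7 senescence genes, 3 passed the floor. The reductase SAG13 had an FPKM of 36.3 in ros1 control, against 2.25 in WT control. The NAC factors ORE1 and NAP had 2.21 and 1.21 in ros1 control, against 0.272 and 0.292 in WT control. ORE1 and NAP reached the floor in ros1 control alone, so their direction follows from the floor and shows no trend of the list. SAG12, the marker of late senescence, was listed at 0 in both groups. Of 34 glutathione S-transferases, which join glutathione to toxic compounds, 11 were higher (32.4%) and 5 lower (14.7%), beside 6.55% and 10.5% over all genes. GSTU13 had 12.4 in ros1 control, against 65.5 in WT control. GSTU4 (19.6 in ros1 control, against 0.835 in WT control) and GSTU11 (1.42 in ros1 control, against 0.0371 in WT control) reached the floor in ros1 control alone. GSTU6 (0.0526 in ros1 control, against 2.33 in WT control) reached it in WT control alone. Cytochromes P450 were called equally often each way, with 18 of 103 higher and 18 lower (17.5% each, beside 6.55% and 10.5% over all genes). Among them were CYP706A2 at 7.76 in ros1 control, against 0.654 in WT control and CYP81D5 at 2.01 in ros1 control, against 16.6 in WT control. Of 94 UDP-glycosyltransferases, 10 were higher (10.6%) and 16 lower (17%). UGT73D1 had 2.87 in ros1 control, against 0.0475 in WT control and the flavonol rhamnosyltransferase UGT78D1 8.1 in ros1 control, against 97.1 in WT control. Of 17 beta-glucosidases, 3 were higher (17.6%) and 6 lower (35.3%), with BGLU5 at 4.85 in ros1 control, against 25.1 in WT control.

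Of 18 light-harvesting genes, 2 were higher and 2 lower, CAB2 at 734 in ros1 control, against 361 in WT control and CAB3 at 3072 in ros1 control, against 1529.7 in WT control, LHCB4.2 at 47.5 in ros1 control, against 368 in WT control and LHCB2.1 as given above. Their summed FPKM was 33985.8 in ros1 control and 33284.9 in WT control. CAB2 and CAB3 are near-identical neighbours of LHCB1.3, which had 14958 in ros1 control, against 15154 in WT control. Touch genes differed, TCH4, a xyloglucan enzyme, at 6.8 in ros1 control, against 117 in WT control and the calmodulin-like TCH2 at 19 in ros1 control, against 109 in WT control, while TCH3 had 153 in ros1 control, against 115 in WT control. Of 9 clock genes, PRR7 (10.9 in ros1 control, against 3.98 in WT control) and GI (7.96 in ros1 control, against 3.6 in WT control) were higher and RVE1 (0.863 in ros1 control, against 1.99 in WT control) was lower. Among 46 heat shock genes, HSP81-2, which has near copies, had 75.1 in ros1 control, against 304 in WT control.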
